A study of Mus musculus with 80 samples.

Results

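The 34 genes described here encode the transporters and enzymes that carry glucose to pyruvate, lactate and acetyl-CoA, together with the enzymes that set fructose 2,6-bisphosphate and those that switch pyruvate dehydrogenase off. They were chosen by symbol from the RNA-seq table, and all 34 were found among its 25965 rows. Of these, 32 had a mean log2 value of 0 or more over the 12 libraries and were tested with the other expressed genes (11376 in all), while Eno2 and Pfkfb4 lay below that level.

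Glycolysis splits glucose into pyruvate and yields ATP and NADH, and pyruvate is then either reduced to lactate or oxidised to acetyl-CoA by the pyruvate dehydrogenase (PDH) complex in mitochondria. Most steps are served by several isoenzymes from separate genes, which differ in kinetics and tissue. Mouse embryonic stem cells (ESCs) are known for a high rate of glycolysis, and the balance between lactate production and pyruvate oxidation is set in part by PDH kinases, which phosphorylate and inactivate PDH.

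RNA-seq was performed on wild-type ESCs of the line E14, and the question asked by the design is how expression changed as serum ESCs were moved to 2i. Serum cells grew in medium with fetal calf serum and LIF. The 2i medium was N2B27, which has no serum, and contained LIF together with PD0325901 and CHIR99021, which inhibit MEK and GSK3. Serum ESCs and cells at 6, 24 and 72 h in 2i were each represented by 3 libraries, and the 3 comparisons with serum share the serum libraries. H3K9me2 ChIP-seq of serum, 24 h and long-term 2i (LT2i) cells was used as a second readout of the same genes, with 2 bound libraries and 1 input each.

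Levels are given on the log2 scale of the deposited table, which is corrected for gene length and library depth, so that a difference of 1 is a 2-fold change. The read depth behind each library is unknown from this table. All expression levels and family shares are of RNA, and protein was not analysed here. The study describes the replicates of its expression time course as biological, and p-values measure the spread between these libraries. In such bulk samples fewer cells expressing a gene and less RNA per cell cannot be told apart.

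The labelled cell type was checked first. All 10 ESC markers were expressed, at 2.78 to 11.30 over the 12 libraries. The summed linear level of these markers was 1475 to 3897, against 4.76 to 10.2 for 7 fibroblast or feeder markers, 3.16 to 4.29 for 5 primitive endoderm markers, 1.18 to 3.43 for 3 mesoderm markers and 4.28 to 10.0 for 4 neural markers. The ESC markers moved in both directions. Lin28a was at 6.63 to 6.85 in serum and 2.78 to 2.83 at 72 h, and Utf1 at 7.71 to 7.89 and 4.29 to 4.50. Nanog was at 6.62 to 6.87 in serum and 8.29 to 8.63 at 72 h, and Klf4 at 5.16 to 5.47 and 6.53 to 6.68. The fibroblast sum was 8.06 to 10.2 in serum and 4.76 to 5.38 at 72 h, with 2 of its 7 markers at a mean of 0 or more. Col1a1 was at 2.31 to 2.74 in serum and 1.38 to 1.68 at 72 h. Thy1 was at 0.67 to 1.07 and 0.26 to 0.61, while Dcn and Lum lay between -5.74 and -3.27. The neural sum was 8.52 to 10.0 in serum, 5.26 to 5.67 at 6 h and 4.28 to 6.18 at 72 h, with 2 of its 4 markers at a mean of 0 or more. Nes was at 2.72 to 2.96 in serum and 1.61 to 2.26 at 72 h, while Neurog2 lay between -5.83 and -5.27. Sox1 was at -0.15 to 0.38 in serum, 0.46 to 0.86 at 24 h and 0.10 to 0.28 at 72 h. Pax6 was at -0.11 to 0.02 in serum and -2.85 to -2.62 at 72 h. The mesoderm sum was 2.68 to 3.43 in serum, 1.18 to 1.49 at 24 h and 2.90 to 3.05 at 72 h. The part of these markers in the results was not tested. The third library at 24 h stood apart: it was the lowest of its group for 21 of the 32 tested genes, against 48.8% of all genes tested, and its members of shorter span lay at a median of -0.41 relative to the other libraries of the group. Calls against serum that changed without this library are given with both values. The 72 h libraries also differed in members of shorter span, at a median of 0.16 for the second and -0.17 for the third relative to the others. Deviations of the third libraries of 24 and 72 h from their group means correlated at 0.85 over all genes tested.

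Promoter sequences are shown for 6 genes that carry the main changes described below, because Pdk1, Slc2a1 and Hk2 fell early while Hk1, Ldhb and Aldoc rose. They are the 250 bases upstream of the RefSeq start (GRCm38.p6) nearest to the start in the deposited table. Capitals mark matches to the letters ACGTG or GCGTG, the core of the hypoxia response element, on either strand.
Pdk1 (chr2:71872974-71873223, plus strand): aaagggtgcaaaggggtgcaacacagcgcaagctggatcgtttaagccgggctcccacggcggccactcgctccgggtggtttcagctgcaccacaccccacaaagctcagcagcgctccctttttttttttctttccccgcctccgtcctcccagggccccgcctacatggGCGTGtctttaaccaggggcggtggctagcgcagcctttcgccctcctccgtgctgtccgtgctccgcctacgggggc
Slc2a1 (chr4:119108495-119108744, plus strand): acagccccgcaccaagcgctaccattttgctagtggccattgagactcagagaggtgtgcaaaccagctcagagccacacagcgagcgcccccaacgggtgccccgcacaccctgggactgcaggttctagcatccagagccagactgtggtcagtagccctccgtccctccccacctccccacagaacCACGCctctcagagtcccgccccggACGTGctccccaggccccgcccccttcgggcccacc
Hk2 (chr6:82774455-82774704, minus strand): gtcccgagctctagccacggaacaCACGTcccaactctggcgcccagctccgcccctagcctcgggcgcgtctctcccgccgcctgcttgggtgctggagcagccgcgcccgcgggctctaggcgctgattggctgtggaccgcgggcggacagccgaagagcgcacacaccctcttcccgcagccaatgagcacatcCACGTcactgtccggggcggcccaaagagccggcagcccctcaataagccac
Hk1 (chr10:62379909-62380158, minus strand): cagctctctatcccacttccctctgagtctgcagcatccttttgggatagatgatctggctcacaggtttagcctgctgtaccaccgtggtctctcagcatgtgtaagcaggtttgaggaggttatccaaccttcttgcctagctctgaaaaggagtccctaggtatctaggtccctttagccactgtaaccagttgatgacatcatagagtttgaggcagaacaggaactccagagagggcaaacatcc
Ldhb (chr6:142507958-142508207, minus strand): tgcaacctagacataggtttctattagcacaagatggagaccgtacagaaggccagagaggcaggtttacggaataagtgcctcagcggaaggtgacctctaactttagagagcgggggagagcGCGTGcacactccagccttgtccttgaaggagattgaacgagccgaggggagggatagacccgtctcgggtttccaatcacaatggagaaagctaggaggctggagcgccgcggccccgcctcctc
Aldoc (chr11:78322823-78323072, plus strand): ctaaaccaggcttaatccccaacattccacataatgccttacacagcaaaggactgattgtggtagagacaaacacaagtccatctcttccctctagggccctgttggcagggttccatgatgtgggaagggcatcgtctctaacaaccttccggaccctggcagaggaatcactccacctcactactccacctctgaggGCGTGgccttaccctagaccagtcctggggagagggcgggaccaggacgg
The window of Pdk1 held 1 match, as did those of Ldhb and Aldoc, while Slc2a1 and Hk2 each held 2 and Hk1 held none. A window was available for 33 of the 34 genes, the exception being Slc2a3. Of these, 25 (75.8%) held at least 1 match, against 59.2% of 7747 tested genes and 44.5% of all 16035 genes with a window. The E-box letters CACGTG, which contain ACGTG on both strands and are bound by Myc family factors, were found in 5 of the 33 windows (15.2%), against 9.11% of tested genes and 6.79% of all. These are matches to letters, not sites of binding.

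After transfer to 2i the pathway changed gene by gene rather than in 1 direction. A gene was called at an adjusted p under 0.05. At 6 h, 1 member was called higher and 7 lower, against 8.24% of all genes called higher and 6.01% called lower, so that 21.9% of the tested members were lower at this time. At 24 h, 12 members (37.5%) were called higher and 8 (25.0%) lower, beside 33.6% and 29.1% of all genes. With quantile normalisation this split at 24 h was 8 higher and 11 lower, beside 31.9% and 31.4% of all genes. At 72 h, 8 members (25.0%) were called higher and 10 (31.25%) lower, beside 24.5% and 26.0% of all genes. The shares at 24 and 72 h lay near those of all genes, and are not read as a property of the pathway. Without the third 24 h library the counts at 24 h were 15 higher and 9 lower, beside 39.9% and 31.8%. With the replicate number as a block, 3 members were higher and 8 lower at 6 h (11.3% and 8.32% of all genes), and 15 were higher and 9 lower at 24 h (38.7% and 32.1%). When only the serum and 6 h libraries were fitted, 3 members were higher and 10 lower at 6 h, beside 1764 and 1475 of all 11376 genes.

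When a call also needed an absolute log2 change of 1 or more, the members called lower at 6 h were 3 and none was higher, beside 1.89% and 2.18% of all genes. By the same rule 3 were higher and 3 lower at 24 h (13.7% and 11.4% of all genes), 3 higher and 5 lower at 72 h (9.72% and 8.19%), and 2 higher and 1 lower in 72 h against 24 h (3.74% and 3.66%).

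The median change of the 32 members was -0.18 at 6 h against 0.01 for all genes tested, then 0.03 at 24 h against 0.10 and 0.13 at 72 h against -0.01. Single members spread far around these medians, from -2.31 to 2.11 at 24 h and from -2.30 to 2.41 at 72 h. Of the 32, 25 were called at 1 or more of the 3 times, and 6 were called at all of them. Slc2a1, Slc16a3, Hk2, Pfkl and Pdk1 were lower each time and Hk1 was higher each time. Pdk2, Pdk3, Pgam1, Pgk1, Slc16a1 and Tpi1 were called in no comparison without the replicate block, at the deposited scaling and with all 12 libraries, although each passed the threshold under at least 1 alternative.

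**Figure D1:**
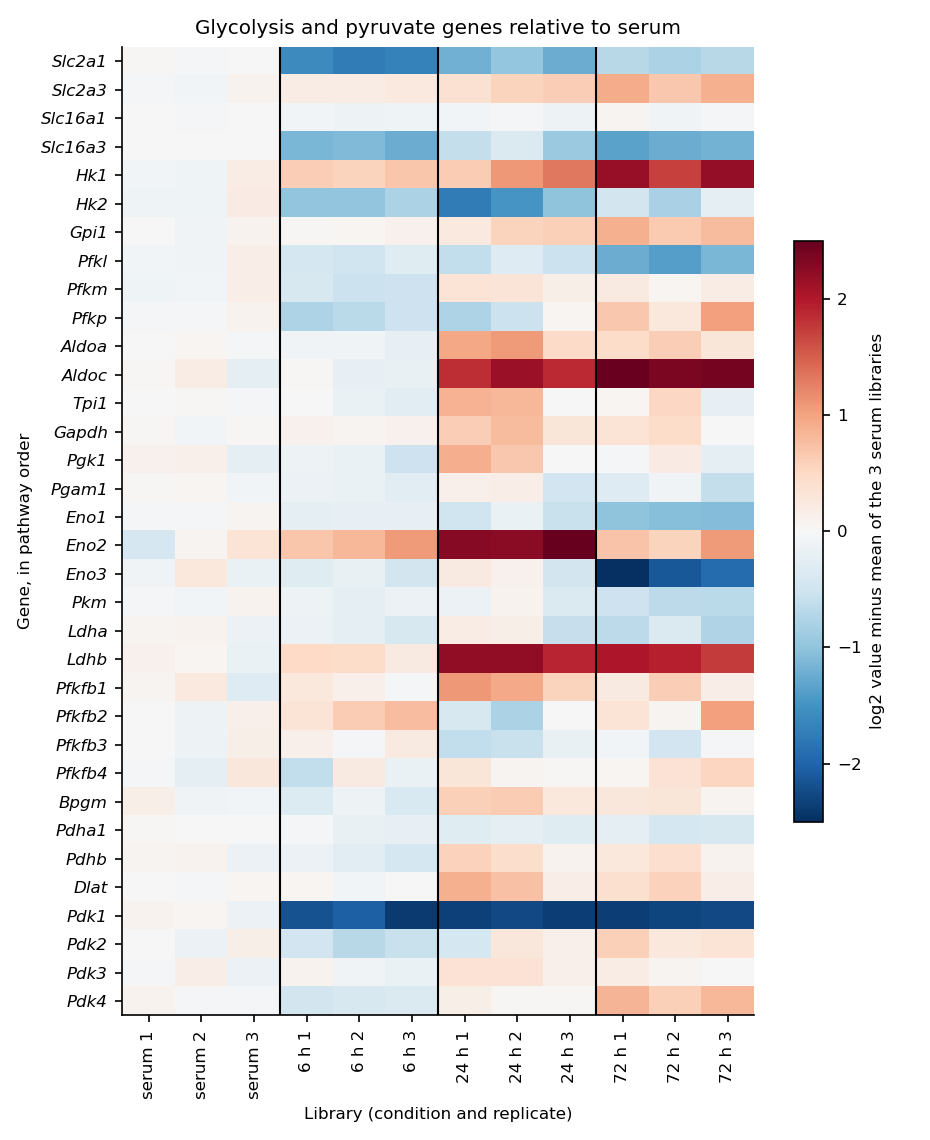
Log2 level of each of the 34 genes (rows, in pathway order) in each of the 12 libraries (columns), minus the mean of the 3 serum libraries of that gene. Pdk1 is blue in all 9 libraries of 2i, Slc2a1 is darkest at 6 h, and Ldhb and Aldoc turn red from 24 h.

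**Figure D2:**
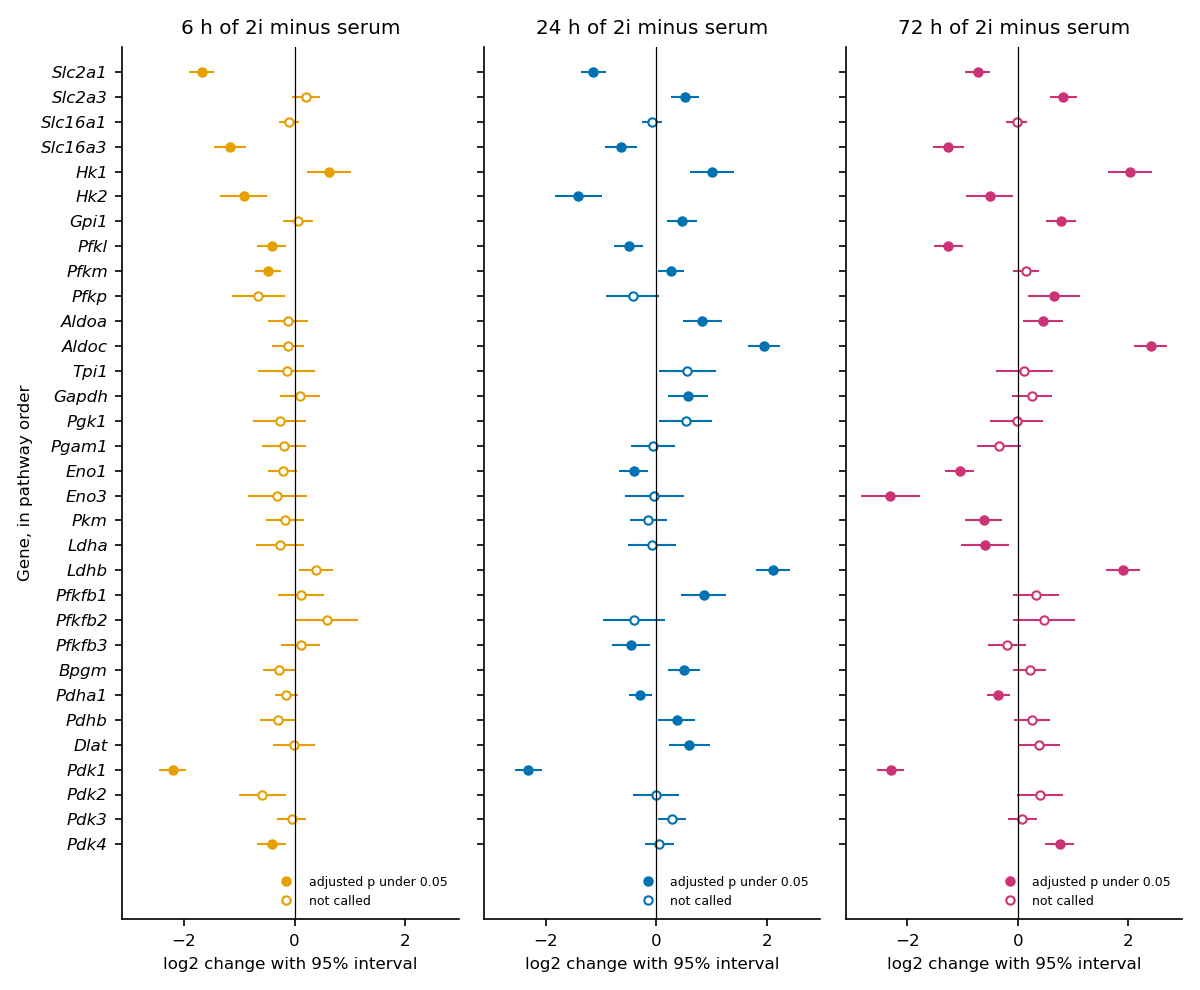
Log2 change from serum with its 95% interval for the 32 tested genes at 6, 24 and 72 h of 2i; filled points have an adjusted p under 0.05 and open points do not. At 6 h 7 of the 8 filled points lie left of 0, and at 24 and 72 h filled points lie on both sides.

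Of the glucose transporters, Slc2a1 was lower by 6 h. Slc2a1 (chromosome 4, 119108711 to 119137330, plus strand) encodes GLUT1, the widely expressed glucose transporter. Its level was 7.25, 7.19 and 7.23 in serum, 5.63, 5.47 and 5.53 at 6 h, 6.03, 6.25 and 5.99 at 24 h and 6.52, 6.44 and 6.53 at 72 h. The 4 conditions did not overlap, with serum highest, 6 h lowest and a partial return thereafter. Slc2a1 was 3.21-fold lower at 6 h (-1.68 ± 0.10 (SE), adjusted p = 1.25e-06), 2.2-fold lower at 24 h (-1.14 ± 0.10 (SE), adjusted p = 5.57e-06) and 1.65-fold lower at 72 h (-0.72 ± 0.10 (SE), adjusted p = 0.000146).

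Slc2a3 encodes GLUT3, a transporter with a high affinity for glucose, and took the opposite course. It lay at 6.61, 6.57 and 6.72 in serum, 6.81, 6.82 and 6.88 at 6 h, 7.01, 7.19 and 7.24 at 24 h and 7.55, 7.30 and 7.52 at 72 h. All libraries at each time in 2i were above all serum libraries. The change was 0.21 (adjusted p = 0.301) at 6 h, 0.52 (adjusted p = 0.00229) after 24 h and 0.83 (adjusted p = 0.000115) at 72 h, and Slc2a3 was called higher from 24 h. With quantile normalisation its 24 h change was 0.10 (adjusted p = 0.679), so that this call rested on the scaling. Slc2a1 made up 60.1% ± 1.1 (SD, n = 3) of the summed linear level of both transporters in serum, 28.9% ± 1.39 at 6 h, 32.4% ± 2.53 after 24 h and 34% ± 1.35 at 72 h. The sum itself was 64.8% of its serum mean at 6 h and 107% at 72 h.

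The monocarboxylate transporters, which carry lactate and pyruvate across the plasma membrane, behaved differently from each other. Slc16a3 (chromosome 11, 120948480 to 120960868, plus strand) encodes MCT4, known for lactate export. Its values were 3.86, 3.86 and 3.83 in serum, 2.70, 2.74 and 2.61 at 6 h, 3.25, 3.49 and 2.92 at 24 h and 2.51, 2.62 and 2.66 at 72 h. No library in 2i reached the serum range. Slc16a3 fell by 1.17 at 6 h (adjusted p = 9.6e-05), by 0.63 at 24 h (adjusted p = 0.00149) and by 1.25 at 72 h (adjusted p = 1.29e-05) on the log2 scale. Slc16a1, which encodes MCT1 and was the more abundant of the pair, was measured at 4.75, 4.71 and 4.74 in serum, 4.65, 4.60 and 4.63 at 6 h, 4.66, 4.71 and 4.61 at 24 h and 4.80, 4.64 and 4.70 at 72 h. Its changes ran from -0.10 to -0.02 with 95% intervals of -0.29 to 0.08, -0.26 to 0.11 and -0.20 to 0.16 at the 3 times, and none was called.

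The hexokinases, which trap glucose as glucose 6-phosphate, moved in opposite directions. For Hk1 (chromosome 10, 62268855 to 62379908, minus strand), the form found in most adult tissues, the libraries gave 1.74, 1.69 and 1.98 in serum, 2.42, 2.35 and 2.49 at 6 h, 2.44, 2.88 and 3.12 at 24 h and 3.99, 3.52 and 4.00 at 72 h. Every 2i library was above every serum library, and the 72 h libraries were above all others. Hk1 was 1.54-fold higher at 6 h (0.62 ± 0.18 (SE), adjusted p = 0.0406), 2.01-fold at 24 h (1.01 ± 0.18 (SE), adjusted p = 0.000605) and 4.09-fold at 72 h (2.03 ± 0.18 (SE), adjusted p = 3.85e-06). The call at 6 h was lost under 11 of 23 alternative settings.

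Hk2 (chromosome 6, 82725025 to 82774454, minus strand), an insulin- and hypoxia-responsive form that binds mitochondria, was the more abundant in every library. It was found at 5.43, 5.43 and 5.75 in serum, 4.54, 4.55 and 4.75 at 6 h, 3.79, 4.06 and 4.52 at 24 h and 5.09, 4.72 and 5.29 at 72 h. The lowest values were those of 24 h, and the ranges of all 3 times lay below that of serum. It was 1.89-fold lower at 6 h (-0.92 ± 0.19 (SE), adjusted p = 0.00807), 2.66-fold at 24 h (-1.41 ± 0.19 (SE), adjusted p = 0.000108) and 1.42-fold at 72 h (-0.50 ± 0.19 (SE), adjusted p = 0.0486), and the last of these calls was lost under 15 of the 23 alternatives. Hk1 rose from 7% ± 0.175 (SD, n = 3) of the summed hexokinase level in serum to 18% ± 0.728 at 6 h, 28.7% ± 1.62 after 24 h and 30.4% ± 1.46 at 72 h, a description of 2 genes that were each tested above. The summed level of both was 49.9% of serum after 24 h and 94.9% at 72 h.

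Gpi1, the isomerase that makes fructose 6-phosphate, rose slowly, from 6.30, 6.22 and 6.38 in serum and 6.33, 6.34 and 6.42 at 6 h to 6.54, 6.86 and 6.91 after 24 h and 7.19, 6.96 and 7.09 at 72 h. The serum and 6 h ranges overlapped and the later ones did not. The change was 0.47 (adjusted p = 0.00599) after 24 h and 0.78 (adjusted p = 0.000277) at 72 h, the former going to 0.17 (adjusted p = 0.492) with quantile normalisation.

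Phosphofructokinase commits the sugar to glycolysis and is built from liver (Pfkl), muscle (Pfkm) and platelet (Pfkp) subunits. Pfkl (chromosome 10, 77986947 to 78010083, minus strand) was the most abundant in serum, with 4.88, 4.86 and 5.13 in serum, 4.51, 4.46 and 4.66 at 6 h, 4.33, 4.63 and 4.41 at 24 h and 3.71, 3.57 and 3.81 at 72 h. Its libraries at 72 h lay below all others, and those at 6 and 24 h lay below serum. Pfkl fell by 0.41 at 6 h (adjusted p = 0.0402), 0.50 at 24 h (adjusted p = 0.00405) and 1.25 at 72 h (adjusted p = 6.92e-06), the last a 2.38-fold decrease. The call at 6 h was lost under 9 of the 23 alternatives.

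Pfkp had the wider spread between libraries. It was measured at 3.44, 3.47 and 3.58 in serum, 2.73, 2.82 and 2.97 at 6 h, 2.72, 2.95 and 3.55 at 24 h and 4.18, 3.75 and 4.53 at 72 h, so that the third library at 24 h lay within the serum range and the other two below it. Pfkp was not called at 6 h (-0.66 (adjusted p = 0.0707)) or 24 h (-0.42 (adjusted p = 0.11)) and was higher at 72 h (0.65 (adjusted p = 0.0261)). Without the third 24 h library Pfkp was called lower at 6 h (-0.66 (adjusted p = 0.0159)) and 24 h (-0.66 (adjusted p = 0.00691)), as it was with the replicate block (adjusted p = 0.0149 and 0.033). Pfkm ran from 3.38 to 3.65 in serum, 2.93 to 3.07 at 6 h, 3.62 to 3.82 at 24 h and 3.52 to 3.69 at 72 h. It was lower at 6 h (-0.48 (adjusted p = 0.01)) and higher at 24 h (0.27 (adjusted p = 0.0409)), a call lost under 10 of the 23 alternatives. By 72 h Pfkp held 41.3% ± 4.91 (SD, n = 3) of the summed phosphofructokinase level and Pfkl 30.1% ± 2.02, compared with 21.2% ± 0.901 and 58% ± 0.747 in serum.

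**Figure D3:**
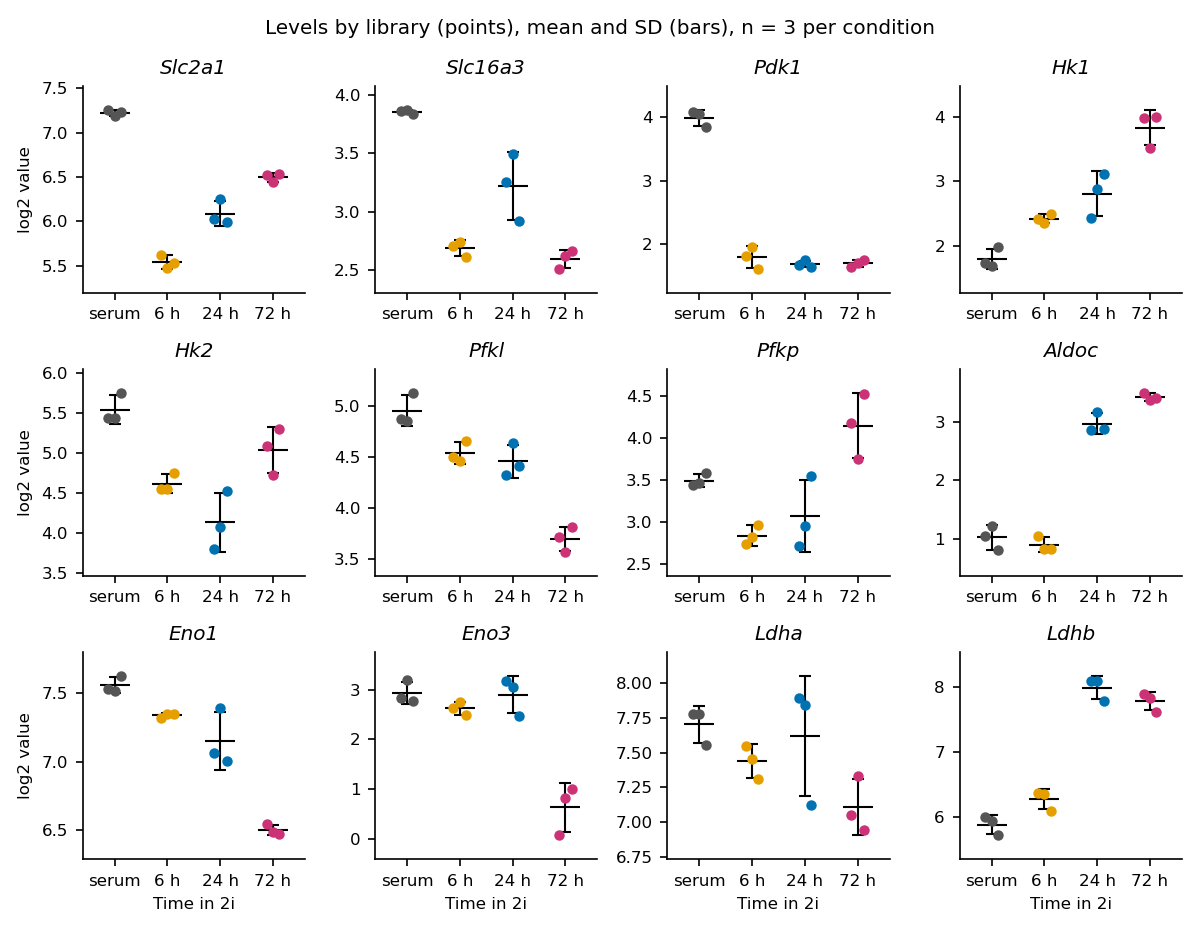
Log2 level (vertical axis, a separate range in each panel) of 12 genes in serum and at 6, 24 and 72 h of 2i; points are single libraries and bars are the mean and SD of 3. Slc2a1, Slc16a3 and Pdk1 drop by 6 h, Ldhb and Aldoc rise by 24 h, and Eno1, Eno3 and Pfkl are lowest at 72 h.

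Among the enzymes that set fructose 2,6-bisphosphate, an activator of phosphofructokinase, levels were low. Pfkfb3, which favours its synthesis and was the most abundant of the 4 over the 12 libraries, was at 1.73, 1.62 and 1.89 in serum, 1.87, 1.71 and 1.97 at 6 h, 1.14, 1.18 and 1.56 at 24 h and 1.67, 1.27 and 1.71 at 72 h. The 24 h libraries all lay below those of serum, and Pfkfb3 was lower at that time (-0.45 (adjusted p = 0.0278)) but was not called at 6 h (0.11 (adjusted p = 0.789)) or 72 h (-0.19 (adjusted p = 0.334)). Pfkfb1 was higher at 24 h (0.86 (adjusted p = 0.00234)), with 1.77 to 2.30 against 0.90 to 1.46 in serum. Pfkfb2 was called at no time against serum, with changes from -0.40 to 0.59, and with the replicate block its 6 h change had an adjusted p of 0.0411. Pfkfb4 was below the level needed for testing, at -1.08 to 0.07 over all libraries.

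Aldolase splits fructose 1,6-bisphosphate, and its minor form Aldoc rose. Aldoc (chromosome 11, 78322968 to 78327781, plus strand), known from brain, lay at 1.05, 1.21 and 0.80 in serum, 1.05, 0.82 and 0.83 at 6 h, 2.86, 3.18 and 2.88 at 24 h and 3.50, 3.37 and 3.41 at 72 h. The 6 h values overlapped those of serum, and those of 24 and 72 h were far above both. Aldoc was 3.87-fold higher at 24 h (1.95 ± 0.13 (SE), adjusted p = 7.1e-07) and 5.3-fold at 72 h (2.41 ± 0.13 (SE), adjusted p = 9.66e-08), calls that held under all 23 alternatives. The abundant form Aldoa was at 8.11, 8.15 and 8.05 in serum, 8.02, 8.01 and 7.91 at 6 h, 9.07, 9.17 and 8.58 at 24 h and 8.57, 8.73 and 8.40 at 72 h. Aldoa was higher at 24 h (0.84 (adjusted p = 0.00114)) and 72 h (0.46 (adjusted p = 0.0347)), without overlap with serum. These calls of Aldoa rested on the scaling, since with quantile normalisation the changes were 0.05 (adjusted p = 0.707) and 0.14 (adjusted p = 0.316), and the one at 72 h was lost under 10 of the 23 alternatives. Aldoc was 2.77% ± 0.343 (SD, n = 3) of their sum at 72 h against 0.735% ± 0.0776 in serum.

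The middle steps of the pathway, from triose phosphates to phosphoglycerate, showed smaller differences in which 1 library weighed heavily. Triose phosphate isomerase, Tpi1, was at 6.55, 6.56 and 6.47 in serum, 6.55, 6.36 and 6.27 at 6 h, 7.39, 7.36 and 6.51 at 24 h and 6.57, 7.04 and 6.33 at 72 h. Gapdh, which makes 1,3-bisphosphoglycerate and NADH, was at 8.80, 8.69 and 8.80 in serum, 8.88, 8.83 and 8.88 at 6 h, 9.39, 9.55 and 9.06 at 24 h and 9.10, 9.22 and 8.78 at 72 h. Pgk1, the first ATP-yielding enzyme of the pathway, was at 6.70, 6.73 and 6.36 in serum, 6.46, 6.44 and 6.08 at 6 h, 7.50, 7.28 and 6.61 at 24 h and 6.56, 6.80 and 6.37 at 72 h. In all 3 genes the first 2 libraries at 24 h were above serum, and the third lay within or nearer to the serum range.

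Gapdh was called higher at 24 h (0.57 (adjusted p = 0.011)), whereas the changes of Tpi1 (0.56 (adjusted p = 0.0552)) and Pgk1 (0.54 (adjusted p = 0.0514)) missed the threshold. With quantile normalisation the value for Gapdh was -0.25 (adjusted p = 0.144), so its direction depended on the scaling. Without the third 24 h library, the changes were 0.70 (adjusted p = 0.00201) for Gapdh, 0.85 (adjusted p = 0.00117) for Tpi1 and 0.80 (adjusted p = 0.00162) for Pgk1, all 3 called. With the replicate block the adjusted p at 24 h was 0.0159 for Tpi1 and 0.0035 for Pgk1. Pgam1, the phosphoglycerate mutase, was at 7.69, 7.70 and 7.59 in serum, 7.51, 7.50 and 7.38 at 6 h, 7.79, 7.83 and 7.18 at 24 h and 7.34, 7.57 and 7.06 at 72 h. At 24 h the first and second libraries of Pgam1 lay above the serum range and the third below it, so that its mean without the third was above serum. Pgam1 was called at no time, with changes of -0.06 (adjusted p = 0.773) after 24 h and -0.34 (adjusted p = 0.145) at 72 h. It was called lower with quantile normalisation at 24 h (-0.64 (adjusted p = 4.69e-05)) and 72 h (-0.55 (adjusted p = 0.000148)), and without the third 24 h library at 72 h (-0.34 (adjusted p = 0.0456)). Bpgm, which diverts 1,3-bisphosphoglycerate to 2,3-bisphosphoglycerate, was at 2.03, 1.80 and 1.81 in serum, 1.54, 1.76 and 1.49 at 6 h, 2.49, 2.52 and 2.15 at 24 h and 2.16, 2.18 and 1.95 at 72 h and was higher at 24 h only among the 3 times (0.50 (adjusted p = 0.00665)). Gapdh, Pgk1, Tpi1 and other abundant members have processed pseudogenes in the mouse genome, and how shared reads were treated is not stated in the sources used here, so their values carry that uncertainty. The library kit does not mark strand, so reads of overlapping antisense genes cannot be told apart.

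Enolase makes phosphoenolpyruvate, and its main form fell late. Eno1 (chromosome 4, 150236721 to 150248879, plus strand) was at 7.53, 7.51 and 7.62 in serum, 7.32, 7.35 and 7.35 at 6 h, 7.06, 7.39 and 7.0 at 24 h and 6.55, 6.49 and 6.47 at 72 h. The libraries at 72 h were below all others and those at 6 and 24 h were below serum. Eno1 was lower at 24 h (-0.40 (adjusted p = 0.0118)) and 2.08-fold lower at 72 h (-1.05 ± 0.12 (SE), adjusted p = 2.55e-05), and at 6 h its change was -0.22 (adjusted p = 0.3). With quantile normalisation the 24 h change was -0.91 (adjusted p = 0.000412).

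Eno3 (chromosome 11, 70657202 to 70662513, plus strand), the muscle form, had the largest decrease of the members between 24 and 72 h. Its values were 2.84, 3.19 and 2.77 in serum, 2.63, 2.74 and 2.48 at 6 h, 3.17, 3.05 and 2.48 at 24 h and 0.07, 0.82 and 1.00 at 72 h. The 24 h range overlapped those of serum and 6 h, and all 3 libraries at 72 h lay far below. Eno3 was 4.94-fold lower at 72 h (-2.30 ± 0.24 (SE), adjusted p = 1.55e-05), after a change of -0.04 (adjusted p = 0.904) at 24 h. Eno2, the neuronal form, was below the level for testing, at -1.51, -1.03 and -0.75 in serum, -0.40, -0.26 and -0.03 at 6 h, 1.18, 1.15 and 1.79 at 24 h and -0.38, -0.54 and -0.02 at 72 h. These groups did not overlap between serum and any time in 2i, with the highest values at 24 h. When genes were not filtered by level, the change of Eno2 was 0.87 (adjusted p = 0.0467) at 6 h, 2.47 (adjusted p = 1.99e-05) after 24 h and 0.78 (adjusted p = 0.0267) at 72 h. It made up 1.78% ± 0.665 (SD, n = 3) of the summed enolase level at 24 h.

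Pyruvate kinase, Pkm, was the most abundant of the 34 genes in serum. It was at 9.81, 9.78 and 9.93 in serum, 9.71, 9.61 and 9.69 at 6 h, 9.70, 9.92 and 9.48 at 24 h and 9.32, 9.19 and 9.16 at 72 h. The 24 h libraries reached from below into the serum range, and the 72 h libraries lay below it. Pkm was lower at 72 h (-0.62 (adjusted p = 0.0059)) but was not called at 6 h (-0.17 (adjusted p = 0.594)) or 24 h (-0.14 (adjusted p = 0.444)). With quantile normalisation it was called lower at 24 h (-1.08 (adjusted p = 0.000423)) as well as 72 h (-0.99 (adjusted p = 0.000837)). Its splice forms were not separated in the table.

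Lactate dehydrogenase interconverts pyruvate and lactate, and the shares of Ldha and Ldhb RNA shifted. Ldhb (chromosome 6, 142490249 to 142507957, minus strand), the heart form, was at 5.99, 5.93 and 5.72 in serum, 6.37, 6.35 and 6.10 at 6 h, 8.09, 8.10 and 7.79 at 24 h and 7.89, 7.83 and 7.62 at 72 h. All libraries of 24 and 72 h were above all libraries of serum and 6 h. Ldhb was 4.33-fold higher at 24 h (2.11 ± 0.14 (SE), adjusted p = 5.23e-07) and 3.74-fold at 72 h (1.90 ± 0.14 (SE), adjusted p = 8.55e-07), both called under all 23 alternatives, while at 6 h its change was 0.39 (adjusted p = 0.0913). The 6 h change was called with the replicate block (adjusted p = 0.00622), without the third 24 h library (adjusted p = 0.0469) and with quantile normalisation (0.48 (adjusted p = 0.0456)).

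Ldha, the muscle form, was at 7.77, 7.78 and 7.55 in serum, 7.55, 7.45 and 7.31 at 6 h, 7.89, 7.84 and 7.12 at 24 h and 7.05, 7.33 and 6.94 at 72 h. At 24 h its libraries lay on both sides of the serum range, and at 72 h they lay below it. Ldha was lower at 72 h (-0.59 (adjusted p = 0.027)), and its values at 6 h (-0.26 (adjusted p = 0.491)) and 24 h (-0.08 (adjusted p = 0.725)) missed the threshold. With quantile normalisation both were called lower (-0.26 (adjusted p = 0.0425) and -0.69 (adjusted p = 2.52e-05)), while without the third 24 h library the 24 h value was 0.16 and not called. Ldhb thus went from 22.1% ± 0.443 (SD, n = 3) of the summed level in serum to 30.8% ± 0.824 at 6 h, 56.5% ± 4.31 after 24 h and 61.5% ± 2.82 at 72 h, and exceeded Ldha in each of the 6 later libraries. The sum of both rose from 268 ± 24 in serum to 458 ± 84 after 24 h and 360 ± 35.8 at 72 h (linear level, SD, n = 3).

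**Figure D4:**
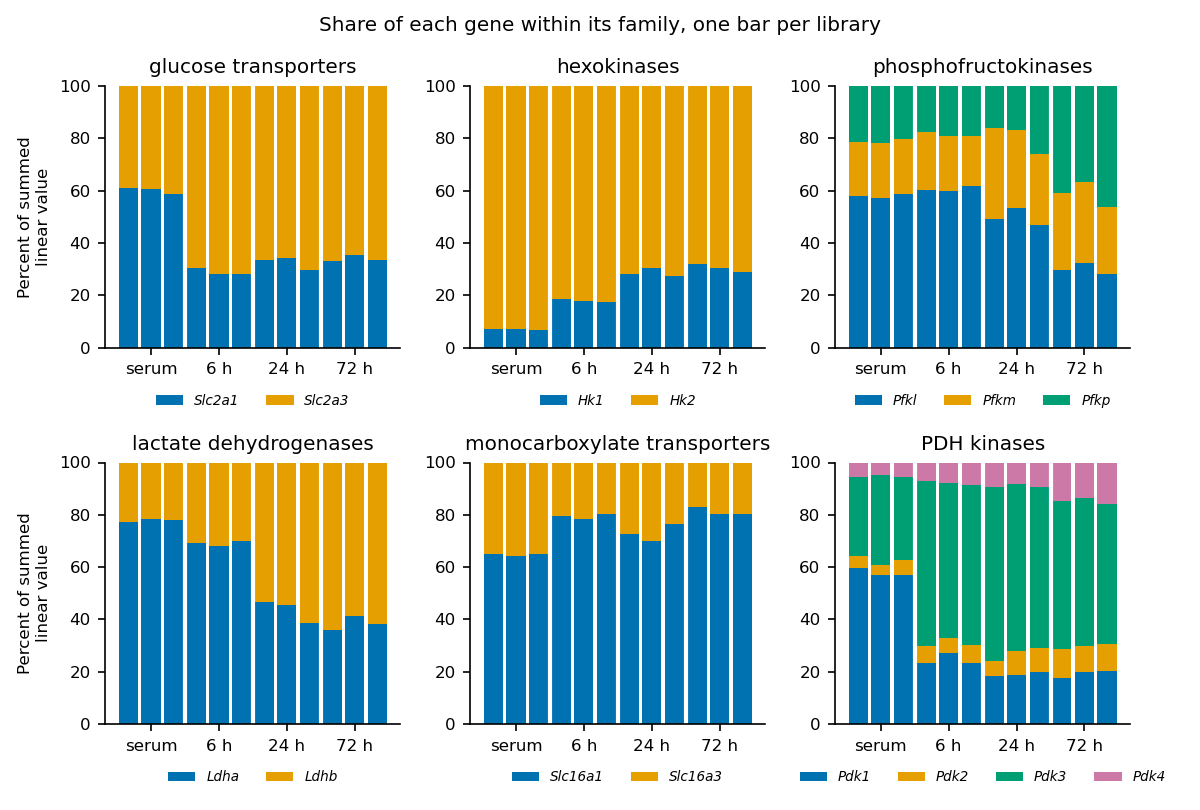
Percent of the summed linear, length-corrected level of a gene family taken by each gene (vertical axis), with 1 bar per library grouped as serum, 6, 24 and 72 h of 2i. Slc2a1 and Pdk1 lose their majority by 6 h, and Ldhb passes Ldha at 24 h.

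The genes of the PDH complex itself changed by smaller amounts. Pdhb, a subunit of its first enzyme and the most abundant of the 3 genes measured, was at 6.34, 6.36 and 6.12 in serum, 6.13, 5.98 and 5.83 at 6 h, 6.84, 6.72 and 6.36 at 24 h and 6.54, 6.69 and 6.36 at 72 h. The third 24 h library lay close to the serum range. Pdhb was called higher at 24 h (0.37 (adjusted p = 0.0484)), a call lost under 14 of the 23 alternatives. Pdha1, the partner subunit that is phosphorylated by PDH kinases, was lower at 24 h (-0.28 (adjusted p = 0.0204), or -0.43 with quantile normalisation) and 72 h (-0.35 (adjusted p = 0.00846)). Dlat, the acetyltransferase, was higher at 24 h (0.60 (adjusted p = 0.0096)), and its value at 72 h was 0.39 (adjusted p = 0.0788). The latter was called without the third 24 h library (adjusted p = 0.0109) and with quantile normalisation (0.41 (adjusted p = 0.0209)).

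Pdk1 (chromosome 2, 71873224 to 71903858, plus strand), a PDH kinase, had the largest early change of all members. It was at 4.08, 4.05 and 3.85 in serum, 1.81, 1.94 and 1.60 at 6 h, 1.66, 1.74 and 1.63 at 24 h and 1.63, 1.70 and 1.74 at 72 h. No library in 2i came near the serum range, and the ranges of the 3 times overlapped. Pdk1 was 4.62-fold lower at 6 h (-2.21 ± 0.11 (SE), adjusted p = 2.99e-07), 4.98-fold at 24 h (-2.31 ± 0.11 (SE), adjusted p = 6.7e-08) and 4.93-fold at 72 h (-2.30 ± 0.11 (SE), adjusted p = 3.56e-08). These 3 calls held under all 23 alternatives.

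The other kinases changed by less than Pdk1. Pdk3, the most abundant kinase over the 12 libraries, was at 3.11, 3.31 and 3.00 in serum, 3.23, 3.06 and 2.98 at 6 h, 3.51, 3.51 and 3.27 at 24 h and 3.33, 3.21 and 3.14 at 72 h, and it was called at no time. Its 24 h change of 0.29 (adjusted p = 0.0514) was called higher without the third 24 h library (0.37 (adjusted p = 0.0177)), with the replicate block (adjusted p = 0.0162) and with quantile normalisation (adjusted p = 0.0373). Pdk4 was lower at 6 h (-0.41 (adjusted p = 0.0408)) and higher at 72 h (0.76 (adjusted p = 0.000309)), and the first of these calls was lost under 12 of the 23 alternatives. Pdk2 lay near the lower limit of testing and its changes ran from -0.58 to 0.40 with no call. The first, at 6 h, was without overlap with serum and was called lower with quantile normalisation (-0.85 (adjusted p = 0.00749)). Pdk1 was 57.8% ± 1.52 (SD, n = 3) of the summed kinase level in serum and 24.8% ± 2.21, 19% ± 0.683 and 19.3% ± 1.54 at 6, 24 and 72 h, and Pdk3 took 64% ± 2.44 at 24 h. The summed level of the 4 genes was 50.6% of serum at 6 h and 60.9% at 72 h.

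A direct comparison of 72 h with 24 h called 7 of the 32 members higher and 5 lower (21.9% and 15.6%), near the 15.2% and 14.6% of all genes. With quantile normalisation the split was 8 higher and 3 lower (17.1% and 14.6% of all genes), and without the third 24 h library it was 9 higher and 14 lower (23.8% and 30.7%). With only the 6 libraries compared it was 2 higher and 2 lower, beside 670 and 542 of all 11376 genes. The higher genes were Slc2a1 (0.41 (adjusted p = 0.0123)), Hk1 (1.02 (adjusted p = 0.00174)), Hk2 (0.91 (adjusted p = 0.00546)), Pfkp (1.08 (adjusted p = 0.00401)), Aldoc (0.45 (adjusted p = 0.0258)), Pfkfb2 (0.88 (adjusted p = 0.0251)) and Pdk4 (0.70 (adjusted p = 0.00147)). Both hexokinases and the main glucose transporter of serum cells were thus higher at 72 h than at 24 h. The lower genes were Slc16a3 (-0.62 (adjusted p = 0.00471)), Pfkl (-0.76 (adjusted p = 0.000903)), Eno1 (-0.65 (adjusted p = 0.00217), or -0.34 (adjusted p = 0.107) with quantile normalisation), Eno3 (-2.27 (adjusted p = 8.7e-05)) and Pkm (-0.48 (adjusted p = 0.0369)), whose value turned to 0.08 (adjusted p = 0.748) with quantile normalisation. Pdk1 had reached its level by 6 h and differed by 0.01 between these times (95% interval -0.23 to 0.26).

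Genes around the pathway were counted in lists, to be read beside the shares of all genes called higher and lower (at 6 h 8.24% higher and 6.01% lower, at 24 h 33.6% higher and 29.1% lower, at 72 h 24.5% higher and 26.0% lower). The lists were chosen with earlier results of these data known. They were counted only at the deposited scaling with all 12 libraries, so their dependence on the scaling and on the third 24 h library is unknown. Listed genes with a mean log2 value below 0 over the 12 libraries, most of which are of 2i, were not tested. The tested genes were 13 of 28 with values for other glycolysis and 5 of 6 for pyruvate entry. They were 8 of 9 for pentose phosphate, 3 of 6 for gluconeogenesis and 18 of 20 for hypoxia. Of 13 other glycolysis genes tested, 9 (69.2%) were higher at 24 h and as many at 72 h, 8 of them at both times, and 1 (7.69%) was lower at both. Their median change was 0.71 and 0.67, against 0.10 and -0.01 for all genes. They included Pgm2, a phosphoglucomutase that feeds sugar phosphates into the pathway, at 1.52 (adjusted p = 6.82e-07) after 24 h and 1.63 (adjusted p = 2.65e-07) at 72 h. The lower gene was Gpd2, the mitochondrial glycerol phosphate dehydrogenase that passes cytosolic NADH electrons to the respiratory chain, at -1.82 (adjusted p = 4.86e-07) and -1.32 (adjusted p = 4.2e-06). At 6 h Gpd2 was the 1 gene of the 13 that limma called (-0.62 (adjusted p = 0.00433)), and 4 had an unadjusted p under 0.05.

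Of 5 tested genes for pyruvate entry and PDH regulation, 2 were lower at 24 h and the rest were not called, and 1 was higher and 2 lower at 72 h. Pyruvate carboxylase, Pcx, was lower at both times (-0.79 (adjusted p = 7.08e-05) and -1.32 (adjusted p = 1.52e-06)). Of 17 citric acid cycle genes, 11 (64.7%) were higher at 24 h and 8 (47.1%) at 72 h, beside 33.6% and 24.5% of all genes, and the rest were not called. Their median changes were 0.51 and 0.34. At 6 h limma called 0 of the 17 and 1 had an unadjusted p under 0.05. Idh2, the mitochondrial NADP-dependent isocitrate dehydrogenase, had the largest change among them (1.47 (adjusted p = 5.72e-06) and 1.69 (adjusted p = 1.64e-06)). Of 8 pentose phosphate genes, 5 were higher and 2 lower at 24 h and 2 were higher and 1 lower at 72 h, G6pdx, the first enzyme of that route, being lower at both (-0.61 (adjusted p = 0.000411) and -0.58 (adjusted p = 0.00066)). All 3 tested gluconeogenesis genes, of 6 listed, were higher at 72 h, with Pck2, the mitochondrial PEP carboxykinase, at 2.35 (adjusted p = 2.46e-08).

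Known regulators of glycolytic genes were followed in the same way, without a test of their link to the members. Of 6 tested genes of the Myc family and of nutrient sensing, 3 were higher and 3 lower at 24 and at 72 h, and 3 were higher and 2 lower at 6 h. Myc changed by -3.93 (adjusted p = 9.29e-09) at 6 h and -5.79 (adjusted p = 1.2e-10) at 72 h, and Mycn by -1.30 (adjusted p = 1.31e-05) and -1.38 (adjusted p = 1.64e-06). Txnip, which restrains glucose uptake, was higher at 24 h (1.91 (adjusted p = 1.69e-07)). Of 18 hypoxia-inducible genes and HIF subunits, 3 (16.7%) were higher and 5 (27.8%) lower at 6 h. At 24 h 7 (38.9%) were higher, near the 33.6% of all genes, and 3 lower, and at 72 h 11 (61.1%) were higher and 3 (16.7%) lower, beside 24.5% and 26.0%. Their median change was 0.71 at 72 h, and Vegfa, the endothelial growth factor, rose (2.16 (adjusted p = 8.31e-06)). Epas1, which encodes HIF2 alpha, was lower at 6 h (-1.47 (adjusted p = 0.00616)) and 24 h (-3.0 (adjusted p = 1.05e-05)).

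H3K9me2, a histone mark of inactive chromatin, was then summarised over the span of each gene in 2-kb bins. Levels are the log2 bound level minus the log2 input level of the same condition. Changes and calls, unless stated otherwise, are of the bound libraries without input subtracted. All 34 genes lay below input in all 3 conditions, as did 74.6% of 23602 genes in serum. The median over the members was -1.94 in serum, -1.94 at 24 h and -3.07 in LT2i, against -1.80, -1.84 and -2.84 over expressed genes. Gapdh was lowest, at -4.68 and -4.68 in the 2 serum libraries, and Pfkfb3 and Pdk4 were highest, at -0.04 and -0.04 and -0.62 and -0.16. By the mean of both serum libraries the 5 lowest were Gapdh, Aldoa, Eno1, Aldoc and Pkm, although Aldoc, covered by 3 bins, was at -2.45 in the first library and -4.66 in the second.

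Between serum and 24 h, limma called 0 of the 34 members, as it called 0 of all 23602 genes (0%), under every alternative but for 4 genes, none of them members, when bins near gene starts were used. At an unadjusted p under 0.05 there were 3 members and 2758 genes. In LT2i, 23 members (67.6%), those with an unadjusted p under 0.05, were called lower and the rest were not called, against 49.4% of all genes called lower and 6.06% called higher, and 61.8% of expressed genes called lower. With input subtracted, 19 members were called lower and 0 higher, beside 11222 and 1504 of 23602 genes. The median change of the bound libraries was -0.95 for members, -0.60 for all genes and -0.86 for expressed genes. Since these values are relative to library totals, the decrease shared by most genes cannot be told apart from a change of scale. When each library was centred on its median, 6 members (17.6%) were called lower and 2 (5.88%), Pdk4 and Gapdh, higher, beside 10.7% and 35.6% of all genes. Gapdh was covered by 3 bins, with bound levels of 0.29 and 0.30 in serum and 0.31 and 0.52 in LT2i. Such low spans leave little room for a decrease, and the part of this limit in the calls was not tested. From bins near gene starts, 6 members were called, all lower, beside 22.2% of all genes lower and 4.06% higher.

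The largest decrease in H3K9me2 was that of Ldhb, from -0.86 and -0.80 in serum and -1.01 and -1.11 at 24 h to -3.06 and -3.15 in LT2i (-2.29 ± 0.13 (SE), adjusted p = 0.00142 for the bound libraries). This span was within the upper part of the members in serum and near their median in LT2i. Hk2 went from -1.57 and -1.52 in serum to -3.13 and -3.21 in LT2i (-1.56 ± 0.14 (SE), adjusted p = 0.00144) and Slc16a3 from -2.06 and -1.89 to -3.45 and -3.45 (-1.55 ± 0.16 (SE), adjusted p = 0.00159). Hk1 changed by -1.25 ± 0.12 (SE), adjusted p = 0.00148. These 4 genes stayed lower after centring, together with Pfkfb4 and Pdk2. Pdk1 changed by -0.57 ± 0.18 (SE), adjusted p = 0.0408, and with centred libraries its value was 0.33 (adjusted p = 0.183). RNA of LT2i cells was not analysed here.

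**Figure D5:**
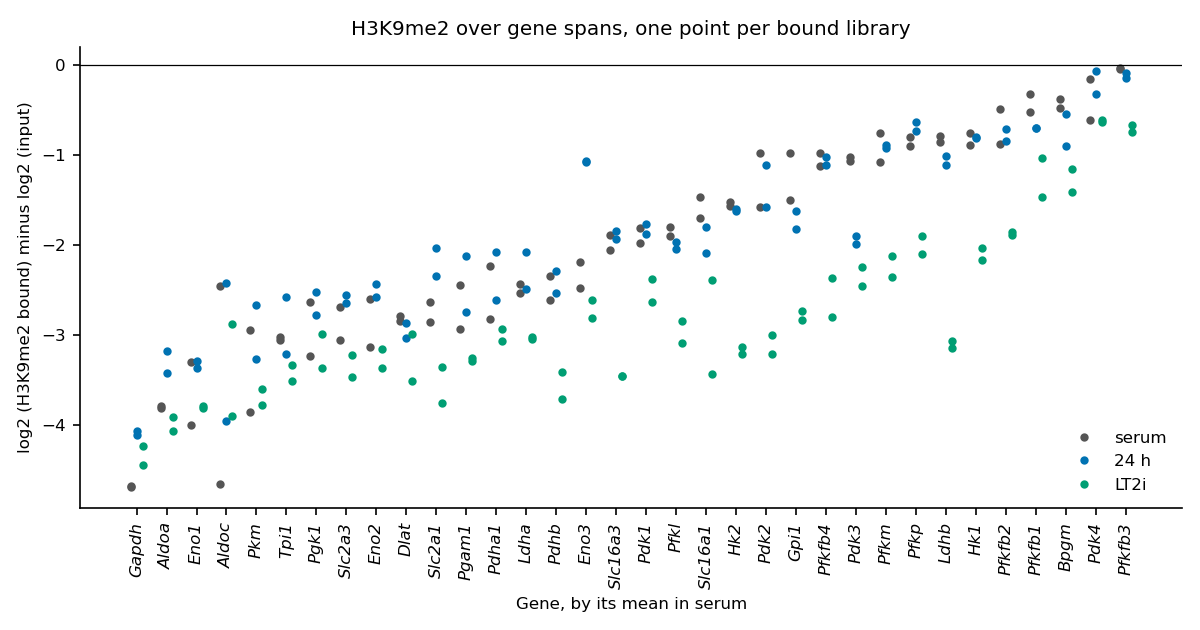
Log2 H3K9me2 bound minus log2 input over the span of each of the 34 genes (vertical axis), ordered by the mean in serum, with 1 point per bound library of serum, 24 h and LT2i. Serum and 24 h points lie together for most genes, while LT2i points lie lower, with the widest gap at Ldhb.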

How the data were processed

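RNA-seq covered 12 E14 libraries and H3K9me2 ChIP-seq 9 (6 bound, 3 inputs), grouped by the sample labels. The RNA table deposited by the authors holds a log2 level for each gene, adjusted for transcript length and sequencing depth and scaled so that the libraries share an upper quartile (2.51). Their ChIP-seq table, also deposited on a log2 scale, gives scaled read numbers in 2-kb bins. The submitters' processing notes name Trim Galore 0.3.5, TopHat2 2.0.11, Bismark 0.12.3 and Bowtie2, with GRCm38 and NCBIM37. The counter and gene lengths are not stated, total reads per RNA library are unknown, and no count model was run. Bisulfite files lie on NCBIM37, whereas gene coordinates are of GRCm38, so methylation was not analysed here.

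Of 25965 rows, the 11376 with a mean log2 value of 0 or more were fitted with limma 3.58.1 in R 4.3.3 (all 12 libraries, intensity trend, Benjamini-Hochberg adjustment over all genes tested, threshold 0.05). Deviations of same-numbered libraries from their group means correlated at 0.26 to 0.66 between serum and 6 h and at 0.13 to 0.54 between serum and 24 h (3 pairs each), so the replicate numbers were taken to pair those groups, from the data and not the labels, and blocked values are given there where a call changed. The second serum library, however, correlated more with the first library of 6 h (0.32) and of 24 h (0.45) than with the second (0.26 and 0.13). Alternatives changed the replicate block, the samples fitted, the scaling, the filter, the pseudocount (1), the variance model and the call rule, or left out libraries. The setting without replicate 3 of both 24 h and 72 h was chosen after seeing the data. H3K9me2 was the log2 of the mean linear value over bins overlapping a gene, tested the same way in 23602 genes on 6 bound libraries. Family shares are of summed linear values. Gene spans overlapped RefSeq GRCm38.p6 spans for all 34 members. Both fits were tested on simulated data, with 100 genes changed at each size. The RNA fit (72 h against serum) recovered 22 of those changed by 0.5 and 70 of those changed by 1. The H3K9me2 fit (LT2i against serum) recovered 73 of those changed by 2 and 84 of those changed by 3. Most simulated RNA changes of 0.5 were thus missed, and among unchanged genes 3 and 4 were called. Each simulation changed 200 genes, while in the data 2788 genes were called higher and 2955 lower at 72 h. For H3K9me2 in LT2i, 1431 were called higher and 11667 lower. Adjusted p depends on how many genes change, so the share of changes missed in the data was not measured. The members and gene lists were chosen with earlier results of these data known. Every member was accounted for, with each library's value for those called with an absolute log2 change of 1 or more and for the most abundant gene of each step.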

Additional observations from a re-analysis of the deposited data

Results flagged for a closer look

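For 12 genes the level in 2i differed between 24 and 72 h, by limma's test of 72 h against 24 h. This equals the difference of the 2 changes from serum. The only serum group carries no time, so 2i and time in culture cannot be told apart here. The change from serum was more positive at 72 h by 0.41 (log2) for Slc2a1, 1.02 for Hk1, 0.91 for Hk2, 1.08 for Pfkp, 0.45 for Aldoc, 0.88 for Pfkfb2 and 0.70 for Pdk4. At 24 h Slc2a1 and Hk2 were called lower than serum, Pfkp was at -0.42 and Pfkfb2 at -0.40, neither called. The difference was -0.62 for Slc16a3, -0.76 for Pfkl, -0.65 for Eno1, -2.27 for Eno3 and -0.48 for Pkm. With quantile normalisation the value for Pkm was 0.08 (adjusted p = 0.748). The third 24 h library lies apart from the others of its group in many members. Without it 9 members were higher and 14 lower at 72 h than at 24 h, beside 23.8% and 30.7% of all genes. Each of the 12 genes was still called without it. With only the 6 libraries compared, 2 members were called higher and 2 lower, beside 670 and 542 of all 11376 genes. The call of Pkm was lost under 14 of the 23 alternatives, and those of Aldoc and Pfkfb2 under 6 each.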

How the results depend on the processing

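Of 58 called changes of RNA, 19 were called under all 23 alternatives and 39 lost the call under 1 or more. Of these 39, 38 did so when a call also needed an absolute log2 change of 1, and the counts were then 0 higher and 3 lower at 6 h, 3 higher and 3 lower at 24 h, 3 higher and 5 lower at 72 h, with 2 higher and 1 lower between 24 and 72 h, beside 1.89% to 13.7% of all genes over these directions and comparisons. Members higher at 6 h, 1 as reported, were 3 with only the 6 libraries compared (1764 of all 11376 genes). They were 2 with the gene-span trend removed (1051 genes) and 2 with no level filter (1416 of 19814 genes). They were 0 with a pseudocount of 1 (900 genes), and 0 to 2 without single libraries (602 to 1216 genes). With only the 6 libraries compared, 5 members were lower at 24 h (2878 genes). By the same setting 2 were higher and 2 lower at 72 h against 24 h (670 and 542 genes). The last comparison gave 3 lower with quantile normalisation (1666 genes) and 4 to 14 lower without single libraries (947 to 3493 genes). The 14 members and 3493 genes were those without 24 h replicate 3. Without replicate 3 of both 24 h and 72 h, a setting chosen after seeing the data, 3 members were higher at 6 h (1416 genes). In that setting 12 were lower at 72 h against 24 h (2963 genes).

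With the replicate block, 3 members were higher at 6 h and 11 lower at 72 h against 24 h, beside 1287 and 2919 of all 11376 genes. Among the members no call was lost and 20 were gained. Of the 20, 7 were at 6 or 24 h against serum, 5 at 72 h and 8 between 24 and 72 h. For the last 2 comparisons the numbers were not taken to pair the libraries, since same-numbered deviations correlated at 0.05 to 0.47 and -0.32 to 0.85 over 3 pairs each and not every pair exceeded 0.1. As a hint from the data towards pairing, 8 of all 12 libraries correlated best with one of the same number.

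With quantile normalisation Gapdh at 24 h was -0.25 and Pkm for 72 h against 24 h 0.0814. In LT2i, 6 of 34 members (17.6%) were called, all lower, from bins near gene starts, beside 22.2% of all genes lower and 4.06% higher. In that setting Bpgm was 0.42, Eno3 0.55, Pdhb 0.26 and Gapdh -1.35. After median centring 8 were called (6 lower, 2 higher), beside 10.7% of all genes lower and 35.6% higher. Pfkfb3 was then 0.0767, Pdk1 0.33, Ldha 0.17 and Pfkfb1 0.062. Among 2920 RNA values and 680 H3K9me2 values compared, 38 and 63 belonged to changes not called and had another sign under an alternative. The causes were not tested. The 3 libraries per condition, an unknown read depth and 2 bound libraries per ChIP group limit the precision.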
